A study of Canis lupus familiaris with 4 samples.

Results

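Iron uptake, storage and reduction were followed through 10 genes chosen by name: TFRC, TF, CP, HMOX1, FTH1, FTL, SLC11A2, SLC40A1, STEAP2 and IREB2. Every probe set that the platform annotation gives to 1 of these genes alone was taken, which made 17 probe sets of 9 genes among 42924 probe sets and 15115 named genes. TF, the gene of transferrin, matched no probe set in the annotation used and is not analysed here. Another 2 probe sets are annotated to FTL together with a second locus and were left out.

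The RNA came from MDCKII cells, an established epithelial line from dog kidney, and each of 4 groups had 1 Affymetrix array. The groups are labelled as HIF1A knockdown (KD) in hypoxia, HIF1A wild type (WT) in hypoxia, KD in normoxia and WT in normoxia. All cells, controls included, spent 24 h in normoxia and then 24 h in the labelled condition. The sources used here do not say how the knockdown was made, whether the KD cells are 1 clone or how low the oxygen was. Since no group has a second array, no difference can be set against a spread between replicates, and the small number of arrays sets the precision.

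Iron enters most mammalian cells as transferrin bound to its receptor TFRC, is released in the endosome, is reduced there by metalloreductases of the STEAP family and leaves the endosome through the divalent metal transporter SLC11A2. Inside the cell it is stored in ferritin, a shell of heavy (FTH1) and light (FTL) chains, and it leaves through ferroportin (SLC40A1), helped by copper ferroxidases such as ceruloplasmin (CP) and hephaestin (HEPH). The iron regulatory proteins ACO1 and IREB2 bind iron-responsive elements in the mRNAs of several of these genes, and in human or rodent cells TFRC, TF, CP and HMOX1 have been described as targets of hypoxia-inducible factors.

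The arrays were alike in brightness, with median intensities from 45.6 to 47.1, and correlated pairwise across probe sets with r from 0.982 to 0.987. Differences below are between values of log2(intensity + 16), so they understate changes of dim genes, and the floor is the median of all values, an intensity of 46.3. HIF1A, the targeted gene, read 625 in KD hypoxia and 675 in WT hypoxia, against 3435 in KD normoxia and 3651 in WT normoxia. The targeted mRNA thus differed by the oxygen label and hardly by the genotype label, so it goes against the knockdown label, and the labels of the arrays may not be right. Below, KD, WT, hypoxia and normoxia mean only the arrays that carry those labels, and every direction depends on them. Of 10 epithelial marker genes 8 were above the floor in all 4 arrays, while CDH1 and PAX8 were below it in every array. Of the fibroblast markers 0 of 6 reached the floor. Leukocyte and macrophage markers reached it for 4 of 7 genes, hepatocyte markers for 4 of 7, endothelial markers for 2 of 5 and erythroid markers for 2 of the 4 with a probe set. Summed leukocyte marker intensities were 619 in KD hypoxia, 635 in WT hypoxia, 696 in KD normoxia and 675 in WT normoxia, and the hepatocyte sums ran from 386 to 466. The endothelial sums, carried by CDH5 and KDR, moved most and followed the genotype label, with 195 in KD hypoxia against 296 in WT hypoxia, and 250 in KD normoxia against 293 in WT normoxia. The part of these markers in the results was not tested.

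The metalloreductase STEAP2 and the ferroxidase CP were lower in the arrays labelled hypoxia than in those labelled normoxia, in KD and in WT cells. The ferritin chains and the regulator IREB2 stayed within 0.27 (log2) over the 4 arrays. The transporter SLC11A2 was lowest in KD normoxia by every one of its probe sets, but its dimmest was low in KD hypoxia too and the others were not. TFRC and SLC40A1 lay around the floor, and HMOX1 lay below it in every array. In a bulk RNA sample fewer cells with an mRNA and less of it per cell cannot be told apart.

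**Figure D1:**
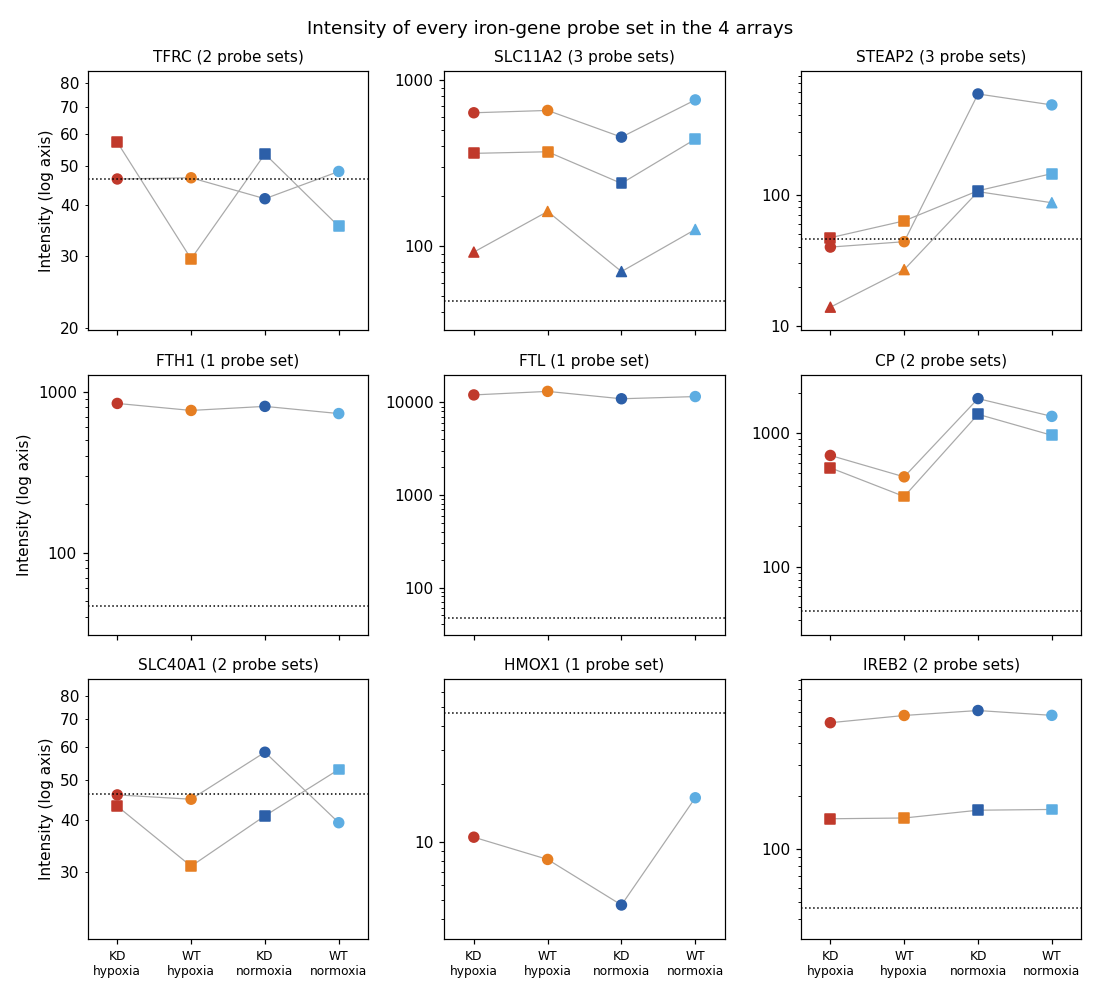
Intensity (log axis) of each of the 17 probe sets in the arrays labelled KD hypoxia, WT hypoxia, KD normoxia and WT normoxia, 1 panel per gene, with a marker shape per probe set and the dotted line at the floor of 46.3. STEAP2 and CP are lower in both hypoxia arrays, and HMOX1 stays under the line. SLC11A2 is lowest in KD normoxia, and its dimmest probe set is low in both KD arrays.

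Of the 10 genes, 8 reached the floor in at least 1 array and could be counted. Between KD hypoxia and KD normoxia 2 of the 8 were at least 2-fold lower, where 0.997% of 9834 genes were, and 0 were at least 2-fold higher, where 0.559% were. Between WT hypoxia and WT normoxia the counts were again 2 lower (background 0.569%) and 0 higher (background 0.600%). The genes were STEAP2 and CP in both pairs. The members were chosen with earlier results of these data known, so these counts are a description and no test. STEAP2 reached the floor in the normoxia arrays alone by the probe set counted here, so it could be counted only by being higher there. The median over the 8 genes was -0.08 in the KD pair and -0.02 in the WT pair, against 0.02 and 0.01 over all genes.

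Among the genes of uptake, TFRC was dim. Its brighter probe set read 46.5 in KD hypoxia, 46.8 in WT hypoxia, 41.5 in KD normoxia and 48.5 in WT normoxia. Its other probe set read 57.2 in KD hypoxia and 29.5 in WT hypoxia, against 53.5 in KD normoxia and 35.5 in WT normoxia. The second probe set was above the floor in the KD arrays and below it in the WT arrays, while the first kept no such order. At this brightness no difference of the transferrin receptor was measurable, in either direction.

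SLC11A2, which carries ferrous iron across the endosomal and apical membranes, was well above the floor in 3 probe sets. The brightest read 638 in KD hypoxia, 659 in WT hypoxia, 454 in KD normoxia and 763 in WT normoxia. The next read 363 in KD hypoxia, 371 in WT hypoxia, 239 in KD normoxia and 442 in WT normoxia. Both put KD normoxia below the other 3 arrays, which lay close together. Their differences KD minus WT were -0.73 and -0.85 in normoxia and -0.05 and -0.03 in hypoxia.

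The dimmest SLC11A2 probe set read 91.8 in KD hypoxia, 162 in WT hypoxia, 70.0 in KD normoxia and 126 in WT normoxia. Here both KD arrays were below both WT arrays, with differences KD minus WT of -0.72 in hypoxia and -0.72 in normoxia. The 3 probe sets therefore gave like values in normoxia and unlike values in hypoxia. Which transcript forms each probe set reads was not looked up. By its brightest probe set the normoxia difference was the 120th lowest of 9834 genes.

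STEAP2, a metalloreductase of endosomes and the plasma membrane that reduces iron and copper in human and mouse cells, had the widest range of the 9 genes. Its brightest probe set read 40.0 in KD hypoxia and 43.9 in WT hypoxia, against 582 in KD normoxia and 480 in WT normoxia. Both hypoxia arrays were under the floor and both normoxia arrays far above it, so only a lower bound of the size is measured. Set against the floor, this probe set was at least 9.59-fold lower in KD hypoxia than in KD normoxia and at least 7.96-fold lower in WT hypoxia than in WT normoxia, on the scale of intensity plus 16.

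The other STEAP2 probe sets went the same way with smaller differences. One was above the floor in all 4 arrays, though only just in KD hypoxia, where it read 47.1 against a floor of 46.3. It read 63.2 in WT hypoxia, against 107 in KD normoxia and 144 in WT normoxia. Its differences were -0.96 in KD and -1.02 in WT cells, close to 2-fold and well short of the bound from the brightest. The last read 14.0 in KD hypoxia and 26.9 in WT hypoxia, both under the floor, against 105 in KD normoxia and 86.8 in WT normoxia. All 3 probe sets were thus lower in both hypoxia arrays than in both normoxia arrays. KD minus WT had no common sign in normoxia, where it was 0.27, -0.38 and 0.24 in the order of the probe sets given. In hypoxia only the second was above the floor in both arrays, at -0.33, with its KD array close to the floor.

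STEAP1, which shares the membrane domain of the family, lies next to STEAP2 in the RefSeq gene order of the dog assembly UU_Cfam_GSD_1.0, used here for names and neighbours alone. Its probe set read 22.1 in KD hypoxia and 19.9 in WT hypoxia, against 206 in KD normoxia and 156 in WT normoxia. Like its neighbour it was under the floor in both hypoxia arrays, which makes it at least 3.57-fold lower in KD hypoxia than in KD normoxia and at least 2.76-fold lower in WT hypoxia than in WT normoxia. CFAP69, the next gene on the other side of STEAP2, differed by -0.20 in the KD pair and -0.16 in the WT pair. STEAP3, the erythroid ferrireductase, was under the floor in every array.

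Storage genes varied little. FTH1, the chain that oxidises iron, read 845 in KD hypoxia, 764 in WT hypoxia, 810 in KD normoxia and 731 in WT normoxia. FTL, the chain that helps to form the mineral core, read 12073 in KD hypoxia, 13186 in WT hypoxia, 10974 in KD normoxia and 11592 in WT normoxia. FTH1 differed between hypoxia and normoxia by 0.06 in KD and 0.06 in WT cells, and FTL by 0.14 in KD and 0.19 in WT cells. The FTL probe set has the suffix x, which Affymetrix gives to probe sets that can also bind other transcripts, and ferritin genes have many near copies, so its level is uncertain.

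CP, a copper protein that oxidises ferrous iron so that transferrin can take it up, was bright in all 4 arrays. Its brighter probe set read 680 in KD hypoxia and 470 in WT hypoxia, against 1813 in KD normoxia and 1334 in WT normoxia. Its other probe set read 550 in KD hypoxia and 335 in WT hypoxia, against 1383 in KD normoxia and 963 in WT normoxia. Both probe sets gave the same order of the arrays, from WT hypoxia, the lowest, through KD hypoxia and WT normoxia to KD normoxia. Hypoxia over normoxia, as a ratio of intensities, was 0.375 in KD and 0.352 in WT cells by the brighter probe set and 0.397 and 0.348 by the other.

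The KD array exceeded its WT array in CP at both oxygen labels. The intensity ratio KD over WT was 1.45 in hypoxia and 1.36 in normoxia by the brighter probe set, and 1.64 and 1.44 by the other. These genotype differences, 0.52 and 0.44 on the log2 scale by the brighter and 0.69 and 0.52 by the other probe set, did not reach 2-fold. The difference of the responses, the labelled hypoxia difference in KD minus that in WT cells, was 0.08 and 0.17 by probe set, and it was not tested.

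HEPH, the membrane-bound relative of CP, was also lower in the hypoxia arrays. It read 82.3 in KD hypoxia and 82.7 in WT hypoxia, against 181 in KD normoxia and 137 in WT normoxia. It differed by -1.001 in KD cells and by -0.63 in WT cells, and was above the floor in all 4 arrays. The KD difference lay just past 2-fold and fell short of it after quantile scaling (-0.99), after median centring (-0.99) and with a pseudocount of 64 (-0.74).

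SLC40A1, the only known iron exporter of mammalian cells, stayed near the floor. Its probe sets read 46.0 and 43.2 in KD hypoxia, 44.9 and 30.9 in WT hypoxia, 58.3 and 40.9 in KD normoxia, and 39.4 and 53.0 in WT normoxia. Each probe set passed the floor in 1 array, and not in the same one. HMOX1, the inducible enzyme that releases iron from heme, read 10.6 in KD hypoxia, 8.14 in WT hypoxia, 4.73 in KD normoxia and 17.0 in WT normoxia. No level or difference of ferroportin or heme oxygenase could be read from these arrays.

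IREB2, the iron regulatory protein that is degraded when iron is plentiful, read 519 in KD hypoxia, 570 in WT hypoxia, 608 in KD normoxia and 571 in WT normoxia. A second probe set read 148 in KD hypoxia and 150 in WT hypoxia, against 166 in KD normoxia and 167 in WT normoxia. The regulator differed between hypoxia and normoxia by -0.22 and -0.15 in KD and by -0.0023 and -0.15 in WT cells, by probe set.

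**Figure D2:**
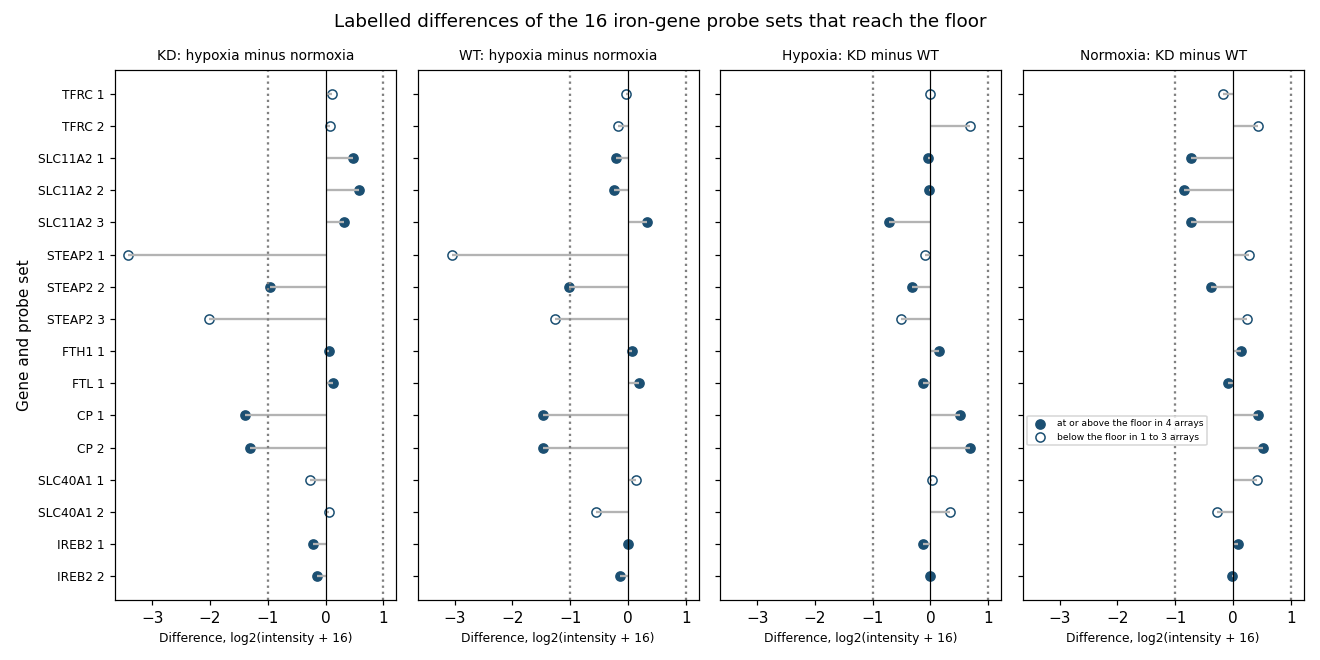
Labelled differences of log2(intensity + 16) for the 16 probe sets that reached the floor, 1 row each, numbered within a gene from the brightest, with dotted lines at 2-fold. Filled points were at or above the floor in all 4 arrays and open points below it in 1 to 3. STEAP2 and CP lie left of 0 in both hypoxia panels, and SLC11A2 lies left of 0 in the normoxia panel of KD minus WT.

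Between genotypes no member differed 2-fold. In KD hypoxia against WT hypoxia 0 of the 8 genes were higher by 2-fold or more and 0 lower, where 0.519% and 0.356% of all genes were. In KD normoxia against WT normoxia the counts were also 0 and 0, with 0.854% and 0.325% of all genes. The difference of the responses reached 2-fold for 0 of the 8 in either direction, against 0.691% of all genes with a larger and 0.875% with a smaller value in KD cells. These are counts of single arrays with no test.

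The 1 test that 4 arrays allow is an additive model of oxygen and genotype, fitted with limma over all 9834 genes (two-sided, p-values adjusted by Benjamini and Hochberg, threshold 0.05). With 1 residual degree of freedom it takes most of its variance from a prior over genes of like intensity, so its p-values do not hold the spread between cultures. That 1 degree is the difference of the responses, so a gene whose responses differ gets a mean of unlike values and a larger SE. In the hypoxia term 2 of the 8 members fell, where 4.17% of all genes did, and 1 rose, where 4.72% did. CP fell by 1.43 (SE 0.09, limma adjusted p = 2.63e-05), and FTL rose by 0.16 (SE 0.04, limma adjusted p = 0.0456). The other lower member was STEAP2, at -3.23 (SE 0.14, limma adjusted p = 2.75e-06), which entered the fit only through the arrays where it was high, so its size and p are a description. In a fit of every probe set, where 4.92% of 23652 probe sets fell in this term, the STEAP2 probe set above the floor in all 4 arrays fell by 0.99 (limma adjusted p = 8.84e-04). That probe set was only just above the floor in KD hypoxia, at 47.1.

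In the genotype term CP rose by 0.48 (SE 0.09, limma adjusted p = 0.0178), where 2.94% of all genes rose. By limma 0 members fell in this term, where 2.43% of all genes did, and 2 were lower at an unadjusted p under 0.05, where 11.6% of all genes were. SLC11A2 stood at -0.39 (SE 0.15, limma adjusted p = 0.161), a mean of -0.73 in normoxia and -0.05 in hypoxia. FTL stood at -0.10 (SE 0.04, limma adjusted p = 0.189). When every probe set entered the fit, where 4.72% fell in this term, the dimmest SLC11A2 probe set was called at -0.72 (limma adjusted p = 0.00583) and the others were not (0.0931 and 0.0926). The endothelial marker sums above were also unequal between the genotype labels, and their part in this term was not tested.

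These calls rest on the intensity trend of the prior. Without it, where 0.0407% of all genes fell in the hypoxia term and 0.0305% rose, STEAP2 was the member still called (limma adjusted p = 0.0384), while CP was at 0.0983 and FTL at 0.411. The STEAP2 call is again a description, since its probe set passed the floor only in the normoxia arrays. In the genotype term limma then called 0 genes in either direction, with 1733 at an unadjusted p under 0.05. With no floor STEAP2 and CP kept their hypoxia calls, while FTL was at 0.237 and the genotype term of CP at 0.198. After quantile scaling SLC11A2 was called in the genotype term (limma adjusted p = 0.00788).

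**Figure D3:**
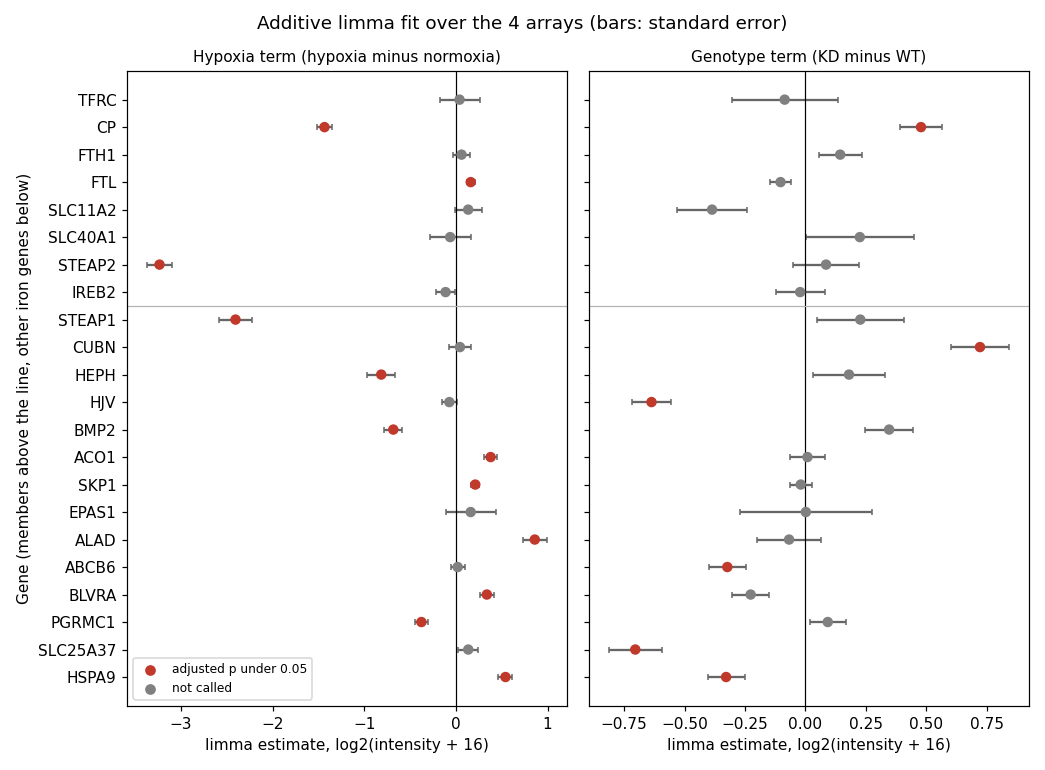
Estimates of the additive limma fit over the 4 arrays, on the scale of log2(intensity + 16), for the hypoxia term (left) and the genotype term (right), with bars of 1 standard error and red points where the adjusted p was under 0.05. The 8 members that reached the floor stand above the line and 14 other iron genes below it. STEAP2 at -3.23, STEAP1 at -2.40 and CP at -1.43 have the lowest hypoxia terms.

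The rest of the iron pathway was described with a list of 84 further genes, of which 67 had a probe set and 56 reached the floor. Between KD hypoxia and KD normoxia 1 of these (ALAD) was higher by 2-fold or more and 2 (STEAP1 and, just past the threshold, HEPH) were lower, and between WT hypoxia and WT normoxia 0 were higher and 1 (STEAP1) lower. The median difference was 0.06 in the KD pair and 0.01 in the WT pair, close to 0.02 and 0.01 over all genes. In the limma hypoxia term 5 of the 56 rose and 4 fell, where 4.72% and 4.17% of all genes did. In the genotype term 1 rose and 4 fell, where 2.94% and 2.43% did. At an unadjusted p under 0.05, 9 were higher and 6 lower in the hypoxia term, where 13.1% and 10.7% of all genes were, and 7 higher and 6 lower in the genotype term, where 10.8% and 11.6% were. The shares of the list at this unadjusted threshold lay near these. By limma without the trend 0 of these calls stayed (STEAP1 was at 0.0584), and with no floor that of STEAP1 alone did (limma adjusted p = 0.0335).

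Of 12 reduction and uptake genes 10 had a probe set and 5 reached the floor. STEAP1 stood at -2.40 in the hypoxia term (limma adjusted p = 1.25e-04), a description like that of STEAP2, since it reached the floor in the normoxia arrays alone. CUBN, an endocytic receptor of kidney tubules that takes up transferrin among other ligands, rose by 0.72 in the genotype term (limma adjusted p = 0.0129). Its intensity was 283 in KD hypoxia and 181 in WT hypoxia, and 299 in KD normoxia and 160 in WT normoxia. Both KD arrays were above both WT arrays. Its other probe set lay around the floor and differed KD minus WT by 0.11 in hypoxia and 0.48 in normoxia.

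Of 11 genes of export and of its hormonal control 9 had a probe set and 7 reached the floor. HEPH fell by 0.81 in the hypoxia term (limma adjusted p = 0.0108), and BMP2, a ligand that induces hepcidin in liver, by 0.68 (limma adjusted p = 0.00303). BMP2 read 370 in KD hypoxia and 281 in WT hypoxia, against 591 in KD normoxia and 471 in WT normoxia. HJV, a coreceptor of the same signal, fell by 0.64 in the genotype term (limma adjusted p = 0.00507). It read 919 in KD hypoxia and 1406 in WT hypoxia, and 945 in KD normoxia and 1512 in WT normoxia, so that both KD arrays were below both WT arrays. Its other 2 probe sets were under the floor in every array and were not lower in both KD arrays.

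A list of 6 genes held the regulator ACO1 itself and genes that act on the iron regulatory proteins. Of these 5 had a probe set, and all 5 reached the floor. All 5 had a higher value in hypoxia in both pairs, where 52.5% of all genes did in the KD pair and 52.4% in the WT pair. Their differences ran from 0.13 to 0.47 in the KD pair and from 0.03 to 0.34 in the WT pair. The sign count carries no test, and 2 of the 5 rose in the limma hypoxia term, where 4.72% of all genes did. All 5 were also higher in both pairs under each other scaling tried. ACO1, which is cytosolic aconitase when it carries an iron-sulfur cluster and an mRNA-binding regulator when it does not, rose by 0.38 (limma adjusted p = 0.0118). It read 3522 in KD hypoxia and 3282 in WT hypoxia, against 2535 in KD normoxia and 2689 in WT normoxia. SKP1, a subunit of the ubiquitin ligase that marks IREB2 for degradation and of many related ligases, rose by 0.21 (limma adjusted p = 0.0196). A second ACO1 probe set differed by 0.06 in the KD and 0.43 in the WT pair.

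Of 11 genes in the heme synthesis list 8 had a probe set and 7 reached the floor. By limma 1 rose and 0 fell in the hypoxia term, where 4.72% and 4.17% of all genes did. At an unadjusted p under 0.05, 0 were lower, where 10.7% of all genes were. The gene that rose was ALAD, the second enzyme of the pathway, with 0.86 (limma adjusted p = 0.00406). ALAD read 294 in KD hypoxia and 267 in WT hypoxia, against 132 in KD normoxia and 163 in WT normoxia, and its other probe set differed by 0.57 in the KD and 0.47 in the WT pair. ABCB6, a porphyrin transporter, fell by 0.32 in the genotype term (limma adjusted p = 0.0447). Of 12 genes of heme breakdown and transport 11 had a probe set and 10 reached the floor. BLVRA, which turns biliverdin into bilirubin, rose by 0.34 in the hypoxia term (limma adjusted p = 0.0274). PGRMC1, a heme-binding membrane protein, fell by 0.38 in the same term (limma adjusted p = 0.0147).

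Of 21 mitochondrial iron and iron-sulfur cluster genes 17 had a probe set, and all 17 reached the floor. In the KD pair their median was 0.10, with 14 higher and 3 lower, where all genes had 0.02 and 52.5% higher. In the WT pair it was -0.0017, with 8 higher and 9 lower, where all genes had 0.01 and 52.4% higher. Under median centring the WT pair had 10 higher and 7 lower and a median of 0.00094. These sign counts carry no test. HSPA9, a mitochondrial chaperone that also serves cluster transfer, rose by 0.54 in the hypoxia term (limma adjusted p = 0.00269) and fell by 0.33 in the genotype term (limma adjusted p = 0.0435). SLC25A37, the mitochondrial iron importer mitoferrin-1, fell by 0.70 in the genotype term (limma adjusted p = 0.0106). It read 1939 in KD hypoxia and 2652 in WT hypoxia, and 1476 in KD normoxia and 2885 in WT normoxia, and its other probe sets were lower in KD cells too, with differences of -0.55 and -1.04 in hypoxia and -0.71 and -0.65 in normoxia. Of 6 genes of iron storage, iron chaperones and ferritin turnover 3 had a probe set, NCOA4, PCBP2 and HERC2, and all 3 reached the floor. Of these 0 passed the test in either term by limma. At an unadjusted p under 0.05 in the hypoxia term, PCBP2 was higher and NCOA4 lower, where 13.1% and 10.7% of all genes were. A second probe set of each, above the floor in all 4 arrays, went the other way. There NCOA4 differed by 0.22 in the KD and 0.36 in the WT pair, and PCBP2 by -0.24 and -0.05.

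**Figure D4:**
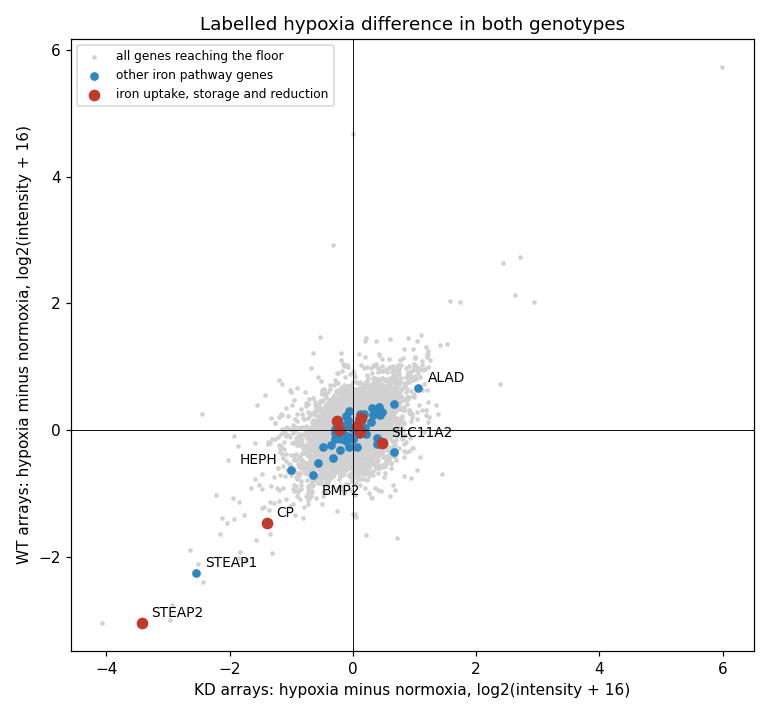
Labelled hypoxia minus normoxia difference in KD cells (horizontal axis) and WT cells (vertical axis), on the scale of log2(intensity + 16), for all 9834 genes that reached the floor (grey), 56 other iron pathway genes (blue) and the 8 members that reached it (red). STEAP2, STEAP1 and CP lie at the lower left, and most iron genes lie near the origin.

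Beyond iron, the genes whose levels ran most like those of STEAP2 over the 4 arrays, by Euclidean distance between centred log2 values, were CCL2 (0.34), DSG3 (0.41) and MMP13 (0.64). The genes most like CP were BAMBI (0.19), NDNF (0.19) and CRYM (0.23). CRYM read 123 in KD hypoxia and 79.6 in WT hypoxia, against 399 in KD normoxia and 302 in WT normoxia. BAMBI and NDNF were under the floor in both hypoxia arrays. The likeness is over 4 arrays of 1 per group and carries no test.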

How the data were processed

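Per the labels' protocols, 100 ng of total RNA was turned into biotinylated cRNA with an Affymetrix 3' IVT kit. The values are linear intensity per probe set as deposited by the authors. What software, background correction and scaling made them is not given in the sources used here, and the scale was read from the values.

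Values were turned to log2(intensity + 16), as computed here from the deposited intensities. Genes were named from probe sets with 1 symbol in the platform annotation (29254 of 42924), of which 27680 had their gene ID in the RefSeq table. The probe set with the highest mean stood for each gene, and 9834 of 15115 genes had a value at or above the floor. Pairs of arrays are given as differences with counts at 2-fold. The additive fit used limma 3.58.1 in R 4.3.3 (lmFit, eBayes with trend, prior of 8.10 degrees of freedom), and the tables Python 3.11.15. The limma fit and the pair differences were tried on simulated gene values, whose errors held no spread between cultures. The other steps were not simulated. Detection calls, coordinates and sequences were not used here.

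The members and lists were chosen with earlier results of these data known. Members, HIF1A, the genes nearest to members that spanned at least 1 (log2), and other iron genes that differed 2-fold or were called by limma were named. CFAP69, STEAP3, NCOA4, PCBP2 and HERC2 were named after their values were seen. Alternatives were other scalings, pseudocounts, floors and thresholds, the median over probe sets, a fit of every probe set and a prior without trend.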

Additional observations from a re-analysis of the deposited data

Results flagged for a closer look

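Of the 30 results considered, which are the 16 member probe sets that reached the floor and 14 other named iron genes, 18 had labelled differences of opposite sign, either between the hypoxia differences of KD and WT cells or between the KD minus WT differences in hypoxia and normoxia. With 1 array per group the contrast was not tested, and small values of opposite sign carry little. The values given are the hypoxia difference in KD cells minus that in WT cells. For TFRC they were 0.16 and 0.25 and for SLC40A1 -0.40 and 0.61, all with values under the floor. SLC11A2 had 0.68 and 0.82 in its brighter probe sets. Its dimmest probe set is not among the 18. STEAP2 had -0.37 and -0.76 in probe sets whose hypoxia readings were under the floor. Its probe set above the floor in all 4 arrays, only just in KD hypoxia, had 0.05, and the median over its probe sets 0.28. IREB2 had -0.22 in one probe set and 0.00011 in the other.

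Among the other iron genes EPAS1, which encodes HIF-2alpha, had 1.01, at intensities of 62.6 in KD hypoxia, 39.2 in WT hypoxia, 33.5 in KD normoxia and 54.2 in WT normoxia, so that only 2 arrays were above the floor, and 0.23 with the median over probe sets. SLC25A37 had 0.51, ALAD 0.41, HEPH -0.37, CUBN -0.24 and PGRMC1 -0.22. ACO1 had 0.19, ABCB6 0.17 and SKP1 -0.077.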

How the results depend on the processing

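No paired analysis was possible by replicate number, because each group has 1 array, and the additive fit already takes the hypoxia term within each genotype and the genotype term within each oxygen label. Counts below are of all 64 iron genes that reached the floor, the members included. Of 65 recomputed counts 51 stayed within 1.5 times. Iron genes at least 2-fold different between KD hypoxia and KD normoxia numbered 5, but 3 with a pseudocount of 64, 3 with a floor at the 75th percentile and 2 at a 3-fold threshold. Between KD and WT in hypoxia the count of 0 became 1 with no floor. For the difference of the responses the count of 1 became 2 with no floor and 0 with a pseudocount of 64, with the median over probe sets, with the higher floor and at 3-fold. Limma called 12 iron genes in the hypoxia term, but 3 with no floor and 1 without the trend, and 6 in the genotype term, but 13 after quantile scaling, 0 with no floor and 0 without the trend. The cause of these moves was not tested.

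Of 382 recomputed limma terms of named genes 10 changed sign, none of them called before or after. With the median over probe sets these were TFRC (-0.0060 in the hypoxia and 0.24 in the genotype term), CUBN (-0.065, hypoxia), STEAP2 (-0.24), ACO1 (-0.023) and PGRMC1 (-0.10, the last 3 in the genotype term). The others were IREB2 (0.0078) and SKP1 (0.010) after median centring and EPAS1 (-0.0098) with a pseudocount of 1, all in the genotype term, and ABCB6 (-0.00084) after cyclic loess in the hypoxia term. Of the member differences 261 of 270 moved by less than 1.5-fold, a measure that differences near 0 can hardly fail and that ignores sign. With the median over probe sets SLC40A1 went from 0.14 to -0.21 in the WT pair, and TFRC, KD minus WT in normoxia, from -0.16 to 0.13. STEAP2 differed less with the median over probe sets, at -1.14 in the KD and -1.42 in the WT pair. Without detection calls, how far TFRC, SLC40A1 and HMOX1 stand above background is not known.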
